A study of Mus musculus with 11 samples.

Results

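Oxidative phosphorylation genes encode the subunits of the mitochondrial respiratory chain and of ATP synthase. The genes described here are the nuclear-encoded ones, taken from the deposited table as every protein-coding symbol that begins with Nduf and a subunit letter, Sdha to Sdhd, Uqcr, Cyc1, Cycs, Cox4 to Cox8 or Atp5. The rule used names only and no measured value. It found 86 genes among the 16894 in the table, of 89 such genes in RefSeq. The other 3, Cox7b2, Cox8c and Ndufb1, were not analysed here. The 86 comprised 37 genes of complex I, 4 of complex II, 9 of complex III, 18 of complex IV, 17 of complex V and the gene of cytochrome c.

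Complex I (NADH dehydrogenase) and complex II (succinate dehydrogenase) pass electrons to ubiquinone, complex III passes them to cytochrome c, and complex IV (cytochrome c oxidase) passes them to oxygen. Complexes I, III and IV pump protons, and complex V (ATP synthase) uses the proton gradient to make ATP. The catalytic cores of several complexes hold subunits made from mitochondrial DNA, while most other subunits come from nuclear genes, many of them with short transcripts. Microglia, the macrophages of the brain, are known to shift between oxidative and glycolytic metabolism with their state.

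RNA was sequenced in bulk from mouse microglia of 3 groups: 4 libraries of transplanted microglia sorted by fluorescence, 3 libraries of primary microglia from culture, and 4 libraries of resident microglia sorted by fluorescence. All 11 libraries carry the Cx3cr1-GFP genotype, a green fluorescent reporter at a microglial receptor gene. Transplanted cells were collected 3 months after transplantation. The labels attach one protocol to every library: 3 rounds of microglial depletion with PLX3397, which blocks the survival receptor Csf1r, given in food at 600 mg/kg, and then transplantation. They do not say whether the donors of resident or cultured cells were fed this way, where the transplanted cells came from, or whether replicates are separate animals or cultures. P-values therefore measure the spread between these libraries, which may be technical. The labels give no age.

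Total expected counts ran from 18692721 to 19761208 in transplanted libraries, from 26705034 to 28219696 in cultured libraries and from 19055655 to 19965631 in resident libraries. The 6 proliferation genes summed to 21.5 to 99.9, 307 to 321 and 11.9 to 17.5 counts per 1000000 reads (CPM) in transplanted, cultured and resident libraries. The 5 lymphocyte markers summed to 0.774 to 1.15 CPM in transplanted libraries (Cd3g at 0), 1.5 to 2.15 CPM in cultured libraries and 17.9 to 26.8 CPM in resident libraries (Cd3e at 0), and the 5 endothelial markers to 13.4 to 18.3, 9.46 to 10.02 and 38.0 to 56.2 CPM. Astrocyte markers summed to 141 to 268, 13.8 to 24.0 and 208 to 264 CPM, oligodendrocyte markers to 43.4 to 50.1, 13.1 to 14.97 (Mog at 0) and 42.8 to 47.7 CPM, neuronal markers to 1.59 to 3.89, 1.05 to 2.29 and 2.22 to 4.02 CPM, and mural and fibroblast markers to 0.480 to 1.05 (Rgs5 at 0), 2.67 to 5.57 (Rgs5 at 0) and 0.607 to 0.960 CPM in the same order of groups. The 7 microglial markers reported (P2ry12, Tmem119, Cx3cr1, Csf1r, Sall1, Aif1 and Siglech) summed to 28280 to 35130 CPM in transplanted, 2371 to 4421 CPM in cultured and 34120 to 37590 CPM in resident libraries, and none was at 0. Csf1r was the highest of them in each group (14710, 3311 and 15950 CPM), and the lowest in cultured libraries was Siglech at 0.740 CPM. The part of these cell types and of proliferation in the results below was not tested. Subunits made from mitochondrial DNA were not analysed here.

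Promoter windows were available from RefSeq (GRCm38.p6) for 69 of the 86 genes, each with 250 bases before and 50 after the annotated start. Recognition sequences of NRF1 (GCGCA, any base, then GCGC), of ETS-family factors such as GABPA (CCGGAAG) and of YY1 (AANATGGC), all known as regulators of respiratory genes, were searched on both strands. Each was found in 17 of the 69 genes (24.6%), against 7.2%, 12.9% and 7.5% of all 17492 protein-coding genes searched. A gene was counted if any of its windows had a match. A CCAAT box (CCAAT) was present in 43.5% of the members and 42.3% of all genes. A TATA box (TATAAA) was present in 10.1% against 14.8%, and a GC box (GGGCGG) in 40.6% against 49.2%. An E-box (CACGTG) was present in 8.7% against 8.9%, and a CRE (TGACGTCA) in 7.2% against 2.5%. The 4 windows below show subunits of contrasting pattern. Cox6a1 and Ndufs6, ubiquitous subunits, were higher in culture on counts, and for Ndufs6 the call depended on how length was handled. Ndufa4 had the smallest rise of the tested complex IV genes in culture, and Cox7a1, a muscle-type isoform, was near 0 in sorted cells. Capitals mark NRF1, ETS and YY1 matches. A match is a description of the letters and not evidence of binding.
Cox6a1, Entrez 12861 (chr5:115348909-115349208, minus strand, 2 NRF1 matches and an ETS match): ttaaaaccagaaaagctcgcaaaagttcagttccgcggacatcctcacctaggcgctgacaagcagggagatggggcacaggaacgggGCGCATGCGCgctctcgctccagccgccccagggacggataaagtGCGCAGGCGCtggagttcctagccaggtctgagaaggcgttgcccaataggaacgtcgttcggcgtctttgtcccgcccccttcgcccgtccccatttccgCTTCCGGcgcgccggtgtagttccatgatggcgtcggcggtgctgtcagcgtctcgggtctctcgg
Ndufs6, Entrez 407785 (chr13:73328433-73328732, minus strand, an NRF1 and a YY1 match): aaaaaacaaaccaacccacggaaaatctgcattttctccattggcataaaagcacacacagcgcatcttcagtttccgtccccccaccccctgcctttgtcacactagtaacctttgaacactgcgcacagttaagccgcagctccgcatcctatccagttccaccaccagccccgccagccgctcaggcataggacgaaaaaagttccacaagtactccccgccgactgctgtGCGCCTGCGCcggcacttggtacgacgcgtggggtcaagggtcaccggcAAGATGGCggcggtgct
Ndufa4, Entrez 17992 (chr6:11907401-11907700, minus strand, no match): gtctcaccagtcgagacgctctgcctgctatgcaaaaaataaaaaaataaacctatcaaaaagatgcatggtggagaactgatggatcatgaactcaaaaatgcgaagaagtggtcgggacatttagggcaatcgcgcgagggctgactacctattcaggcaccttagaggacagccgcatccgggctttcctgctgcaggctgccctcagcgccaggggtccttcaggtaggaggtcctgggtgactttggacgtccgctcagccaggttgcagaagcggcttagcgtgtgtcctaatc
Cox7a1, Entrez 12865 (chr7:30183921-30184220, plus strand, no match): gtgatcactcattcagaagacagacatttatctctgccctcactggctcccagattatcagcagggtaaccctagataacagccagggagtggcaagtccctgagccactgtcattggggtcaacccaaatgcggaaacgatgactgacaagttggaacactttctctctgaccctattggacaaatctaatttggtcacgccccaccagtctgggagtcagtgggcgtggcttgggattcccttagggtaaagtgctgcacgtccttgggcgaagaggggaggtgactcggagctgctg

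On counts the genes with and without an NRF1 match had close medians of change. Between transplanted and resident cells the medians on the log2 scale were -0.25 for the 17 tested genes with the match and -0.22 for the 49 without it. Between cultured and resident cells the medians were 2.27 over 17 genes and 2.26 over 50 genes, and with the dependence on transcript length removed they were 0.45 and 0.72. For the YY1 match the cultured medians were 2.11 with and 2.31 without it on counts, and 0.34 and 0.80 with the dependence on length removed. For the ETS match the cultured medians were 2.50 with and 2.17 without it on counts, and the genes with it had shorter transcripts (median 314 bases against 520 bases). With the dependence on length removed that order turned, at 0.32 with the ETS match and 0.83 without it. On that scale the members' estimates rose with length (Pearson's r = 0.38), so this order is not free of length either.

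The whole set stood highest in culture. The 86 genes together held 1.09%, 1.11%, 1.13% and 1.08% of all TPM (transcripts per 1000000, a scale set for transcript length) in the 4 transplanted libraries, 2.67%, 3.32% and 2.31% in the 3 cultured libraries, and 1.23%, 1.22%, 1.21% and 1.31% in the 4 resident libraries. No transplanted library reached the lowest resident one, and every cultured library stood above both sorted groups. The makeup of the set also differed. Complex IV genes held 22.2% ± 0.229 of the members' TPM in transplanted (SD, n = 4), 31.3% ± 1.40 in cultured (n = 3) and 22.8% ± 0.264 in resident libraries (n = 4). Complex I genes held 33.0% ± 0.848, 25.9% ± 0.222 and 33.2% ± 0.0976 of it, and complex II genes 6.33% ± 0.312, 3.62% ± 0.818 and 6.05% ± 0.148. Complex V genes held 25.9% ± 0.915, 27.8% ± 0.386 and 25.9% ± 0.216. For complexes I, II, IV and V and for cytochrome c no cultured library overlapped a sorted one, while for complex III the groups overlapped.

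**Figure D1:**
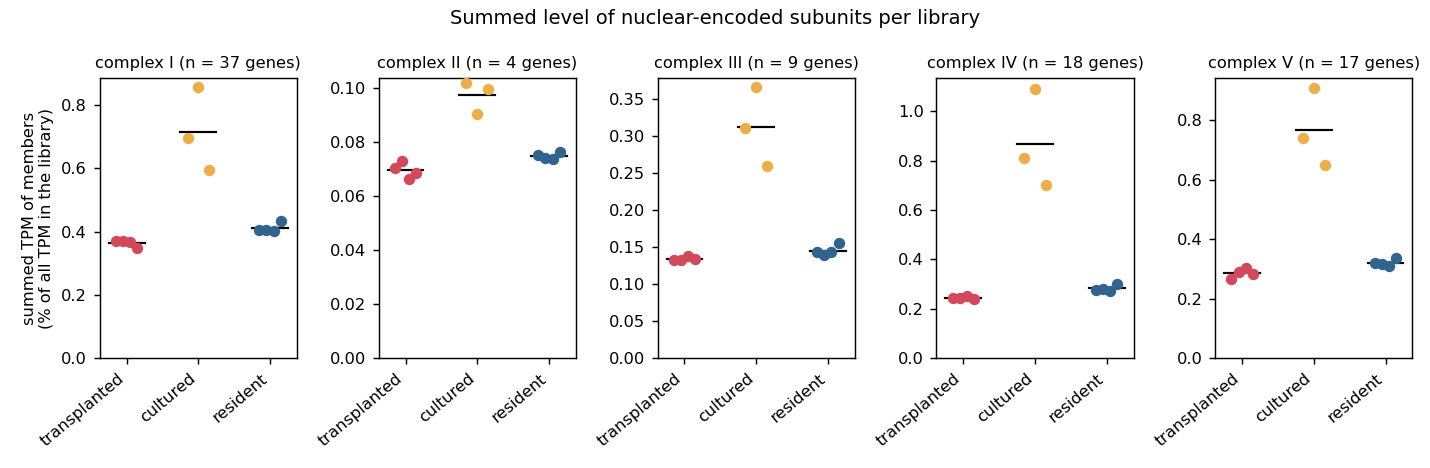
Summed TPM of the nuclear-encoded subunits of each complex as a percentage of all TPM in a library, with the groups transplanted (n = 4), cultured (n = 3) and resident (n = 4) on the x axis; each point is 1 library and each bar the group mean. Cultured libraries are highest in all 5 panels, complex IV reaching 0.703% to 1.09% of TPM in culture against 0.273% to 0.302% in resident libraries.

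Levels among the members spanned from silent isoforms to very abundant subunits. In transplanted and in resident cells the order by mean TPM began with Atp5b (the catalytic beta subunit of ATP synthase), Cox4i1 (the largest nuclear-encoded subunit of complex IV), Cox6b1, Cox8a and Cox6a1. In cultured cells it began with Cox4i1, Cox8a, Cox6b1, Cox6a1 and then Atp5b. Cox4i1 stood at 428 ± 16.5 TPM in transplanted, 1788 ± 361 TPM in cultured and 506 ± 37.2 TPM in resident cells, and Atp5b at 502 ± 42.8, 769 ± 112 and 526 ± 22.1 TPM. In resident cells the difference between Atp5b and Cox4i1 was smaller than the SD of Cox4i1. The median member stood at 128, 230 and 140 TPM in the 3 groups. Over the 76 members above 5 CPM in every group the median coefficient of variation between libraries was 7.5% in transplanted, 28.3% in cultured and 6.5% in resident cells. Cultured library 2 was the highest of the cultured libraries for 74 of the 86 members.

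Between transplanted and resident microglia the differences were small and nearly all in one direction. Of 81 tested members 19 fell in transplanted cells, none rose, and the median log2 fold change was -0.23 (range -0.56 to 0.11). The falls were 1.18-fold to 1.40-fold. A gene was called at an adjusted p under 0.05 in edgeR's quasi-likelihood test with Benjamini-Hochberg adjustment over all genes, the test behind each adjusted p below unless another is named. Of all 11929 genes tested 6.45% were called lower and 6.64% higher, and their median was 0.00. At an unadjusted p under 0.05 there were 47 members, against 27.8% of all genes. DESeq2 called 26 members lower and none higher, against 7.91% and 8.68% of all genes. The summed proliferation markers were higher and the summed lymphocyte and endothelial markers lower in the same transplanted libraries, as given above, and their part was not tested. In bulk RNA, fewer cells of a type and less RNA per cell cannot be told apart. The estimate lay below 0 for 79 members, and 34 members had every transplanted library below every resident one in CPM, against 9.49% of all genes in that direction. No member had every transplanted library above, against 10.2% of all genes.

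The lowest adjusted p among the members was that of Ndufa4, a subunit first assigned to complex I and later to complex IV. Ndufa4 had 21.9, 21.8, 22.0 and 19.1 CPM in transplanted libraries, against 29.0, 27.8, 27.0 and 31.4 CPM in resident libraries. All transplanted values lay below all resident ones, with a log2 fold change of -0.45 ± 0.08 (SE; adjusted p = 0.00495). Cox6b1, a complex IV subunit that faces the intermembrane space, had 41.5, 42.5, 41.5 and 41.8 CPM in transplanted libraries, against 53.8, 51.6, 50.3 and 60.6 CPM in resident libraries. The groups did not overlap, and Cox6b1 had a log2 fold change of -0.38 ± 0.07 (adjusted p = 0.00576). Ndufa4 and Cox6b1 kept an adjusted p under 0.05 without each library in turn. With the length trend described below removed, their adjusted p was 0.0726 and 0.193, and over all alternatives it ranged from 5.4e-05 to 0.132 for Ndufa4 and from 0.000119 to 0.241 for Cox6b1.

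Counted by complex, 5 of 13 tested complex IV genes fell (median -0.25): Ndufa4, Cox6b1, Cox7a2, Cox4i1 and Cox6a1. Cox4i1 had 101, 111, 94.1 and 97.9 CPM in transplanted libraries, against 115, 128, 112 and 135 CPM in resident libraries (log2 fold change -0.29 ± 0.08, adjusted p = 0.0386, with a range of 0.00997 to 0.261 over the alternatives). In complex V 6 of 17 fell (median -0.25), among them Atp5md and Atp5l, small membrane subunits (-0.48 ± 0.14 for Atp5md, the largest fall called), and Atp5o, the stalk subunit that confers oligomycin sensitivity. Atp5b was at -0.11 (adjusted p = 0.389), and none of the 5 genes of the catalytic F1 head was called. In complex I 5 of 37 fell (median -0.24): Ndufb3, Ndufb9 and Ndufb10, accessory subunits, and Ndufv2 and Ndufs8, iron-sulfur subunits of the core. In complex III Uqcrh and Uqcrq fell among 9 genes (median -0.18), and in complex II Sdhc, a membrane anchor, fell among 4 (median -0.17). Sdha, the flavoprotein of complex II, was at -0.03, and Cycs, which encodes cytochrome c, at -0.13, with neither called.

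The differences varied with transcript length. Effective length was derived from the deposited counts and TPM. Over the 81 members the log2 fold change correlated with log2 length (Pearson's r = 0.52, Spearman's rho = 0.50), as a description of genes that share the same libraries. The 1119 other genes of the shortest 10% by length (98 to 992 bases) had a median of -0.14 with 9.92% called lower, and the 61 members of that class had a median of -0.25. When the dependence on length was taken out library by library, the members' median was -0.07, 17 members lay above 0, 2 were called lower and none higher, against 5.94% and 6.09% of all genes (12 members at an unadjusted p under 0.05). The pair called lower were Ndufv2 at -0.26 ± 0.07 (adjusted p = 0.0354) and Ndufa11, an accessory subunit of complex I, at -0.29 ± 0.09 (adjusted p = 0.0497), both with transcripts over 1000 bases. On that scale the members' estimates correlated with length in the other direction (Pearson's r = -0.34, Spearman's rho = -0.38). A trend fitted without the members and the ribosomal protein genes, added after seeing the data, also gave 2 lower and none higher, against 6.04% and 6.09% of all genes. On the log2(TPM + 0.1) scale, with no length trend removed, limma called 15 members lower and none higher (median -0.17, all genes 0.03), against 5.62% and 6.93% of all genes. The count of 19 also rested on single libraries. It was 3, 24, 5 and 4 without transplanted library 1, 2, 3 and 4, and 8, 5, 11 and 2 without resident library 1, 2, 3 and 4.

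**Figure D2:**
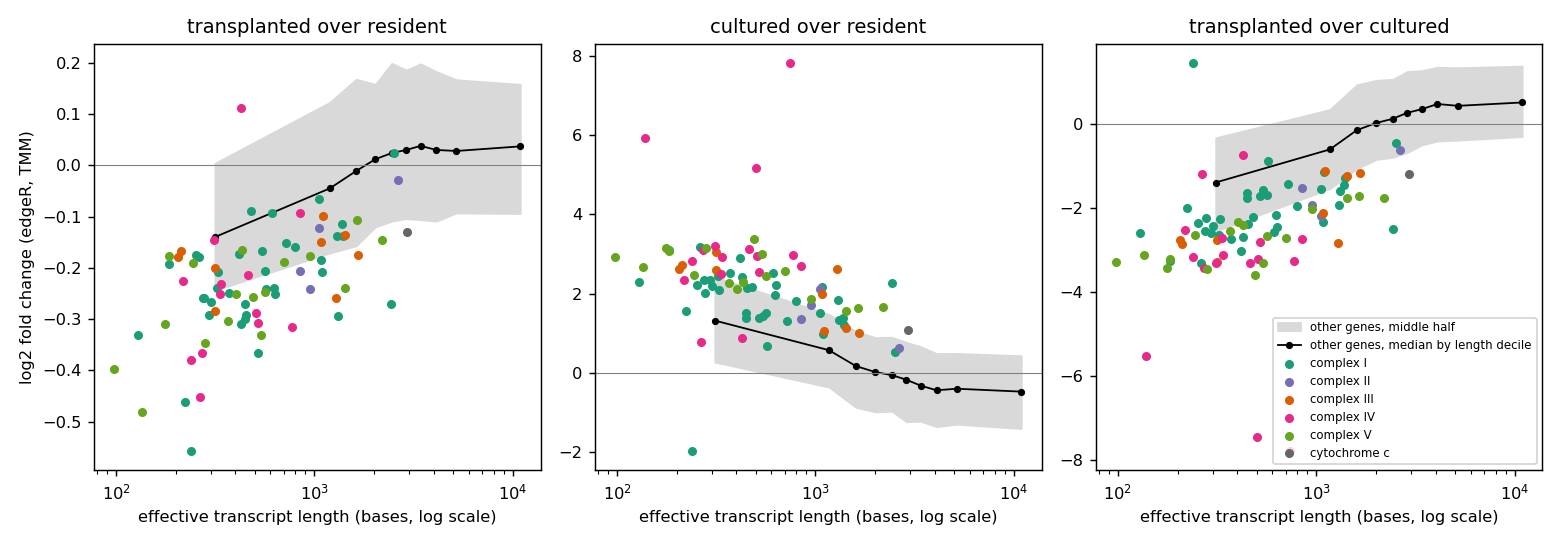
Log2 fold change of each member (y axis) against its effective transcript length in bases (x axis, log scale), coloured by complex, for transplanted over resident, cultured over resident and transplanted over cultured cells; the black line is the median of all other genes by class of length, each with 10% of genes, and the grey band their interquartile range. Members sit among the shortest transcripts, near the lower edge of the band on the left (medians -0.25 against -0.14 in the shortest class) and near its upper edge in the middle (2.45 against 1.32).

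Between cultured and resident microglia nearly the whole set differed. In cultured cells 83 of 84 tested members rose and 1, Ndufb4b, fell (median log2 fold change 2.25). Cox4i2, Cox7a1 and Ndufa4l2 are among the 83 but passed the expression filter only through the cultured libraries, so their calls are no separate evidence. Most genes differed between cultured and resident cells: of all 12406 genes tested 37.9% were called higher and 37.2% lower, with a median of -0.02. Without cultured library 2 the median was 1.97. In CPM 82 members had every cultured library above every resident one, against 36.5% of all genes, and 1 had every cultured library below, against 39.3%. The summed microglial markers were lower and the summed proliferation markers higher in the same cultured libraries, as given above, and their part was not tested.

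Complex IV had the highest median, 2.94 over 16 tested genes, all of them called higher. The 16 include Cox4i2, Cox7a1 and Ndufa4l2, which passed the expression filter only through the cultured libraries and raise this median. Cox4i1 had 789, 1211 and 783 CPM in cultured libraries, against 115, 128, 112 and 135 CPM in resident libraries. It was 7.78-fold higher in culture (log2 fold change 2.96 ± 0.18, adjusted p = 5.85e-07). Cox8a, a small subunit of complex IV, had 457, 643 and 353 CPM in cultured libraries, against 54.7, 53.3, 52.0 and 56.0 CPM in resident libraries (9.21-fold, log2 fold change 3.20 ± 0.19, adjusted p = 5.85e-07). Cultured library 2 was highest for both, and the groups were far apart without it. Cox6b1 was higher by 2.83 ± 0.21 and Cox6a1, whose promoter is printed above, by 2.51 ± 0.21 on the log2 scale.

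Ndufa4 had the smallest rise in its complex. It had 48.9, 61.03 and 34.0 CPM in cultured libraries, against 29.0, 27.8, 27.0 and 31.4 CPM in resident libraries, so that the lowest cultured library lay just above the highest resident one. Its log2 fold change was 0.77 ± 0.18 (adjusted p = 0.00354) on counts, -1.51 ± 0.11 with the length trend removed (adjusted p = 1.89e-06) and -0.41 on the log2(TPM + 0.1) scale (limma, adjusted p = 0.0217), where the median of all genes was -1.07. Its direction thus depended on the scale, and on each of these scales it had the lowest estimate of the 16 tested complex IV genes. Cox6a2, a complex IV gene of few counts, turned in the same way. It was at 0.89 ± 0.33, -0.83 and -0.245 on these scales in that order, the last not called. Ndufs8 of complex I also turned, at 0.67, -0.73 and -0.446.

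In complex V all 17 genes rose (median 2.48). The 5 genes of the F1 head (Atp5a1, Atp5b, Atp5c1, Atp5d and Atp5e) had a median of 1.87 and the 12 others 2.57, with median transcript lengths of 946 and 384 bases. The order turned once the length trend was removed, at 1.37 for the F1 head and 0.47 for the others. On that scale the members' estimates rose with length, as given below, so this order is not free of length either. Atp5b had 1365, 1105 and 1294 CPM in cultured libraries, against 404, 390, 407 and 445 CPM in resident libraries, and was 3.13-fold higher (1.65 ± 0.11, adjusted p = 1.42e-06). Atp5mpl, a small membrane subunit, was higher by 3.17 ± 0.24, and Atp5pb, subunit b of the stalk, by 1.55 ± 0.09.

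In complex III all 9 genes rose (median 2.59). Uqcrh, the hinge protein between cytochrome c1 and cytochrome c, had 180, 323 and 153 CPM in cultured libraries, against 27.0, 27.4, 25.3 and 29.3 CPM in resident libraries (3.04 ± 0.24, adjusted p = 3.32e-06). Uqcr10 was higher by 2.73 ± 0.20 on counts, and with the length trend removed it was at 0.20 and not called (adjusted p = 0.106). It was called higher with the trend of other genes removed (0.57, adjusted p = 0.00145) and on the TPM scale (1.54, limma, adjusted p = 1.15e-05). Cyc1, cytochrome c1 itself, was higher by 1.06 ± 0.10 and Uqcrc2, a core protein, by 1.02 ± 0.10. They were at -0.06 and -0.09 on the TPM scale and not called there, where 67% of all genes were called lower and 17.7% higher.

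In complex I 36 of 37 genes rose (median 2.01). The 7 core subunits had a median of 1.31 and the 30 accessory subunits 2.17, with median transcript lengths of 1308 and 436 bases. This order too turned with the length trend removed, at 0.65 for the core and 0.36 for the accessory subunits, on the same scale where estimates rose with length. Ndufa1, a membrane-arm accessory subunit, had 94.1, 101 and 49.97 CPM in cultured libraries, against 9.92, 8.74, 7.94 and 10.4 CPM in resident libraries (3.18 ± 0.24, adjusted p = 2.5e-06). Ndufc1 was higher by 3.11 ± 0.29 and Ndufs6 by 2.33 ± 0.24 on counts. With the length trend removed Ndufc1 was higher by 0.38 ± 0.13 (adjusted p = 0.0248), and Ndufs6 was at 0.06 and not called (adjusted p = 0.609). Ndufs6 was called higher with the trend of other genes removed (0.37, adjusted p = 0.00921) and on the TPM scale (1.12, limma, adjusted p = 0.000437). Ndufs1, the largest core subunit, had 95.1, 52.8 and 106 CPM in cultured libraries, against 63.6, 55.7, 61.4 and 62.5 CPM in resident libraries. Its groups overlapped through cultured library 2. Its call (0.52 ± 0.21, adjusted p = 0.0478) was lost when any library other than cultured library 2 was left out, with adjusted p-values up to 0.239. On the TPM scale it was called in the other direction (-0.64, limma, adjusted p = 0.0347), where 67% of all genes were called lower and 17.7% higher.

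Ndufb4 and its near-identical copies Ndufb4b and Ndufb4c may share reads, so their split is uncertain. Ndufb4b had 1.00, 0.532 and 0 CPM in cultured libraries, against 1.90, 1.96, 3.14 and 1.33 CPM in resident libraries (-1.97 ± 0.76, adjusted p = 0.0403). The call was lost without cultured library 2 and without resident library 1, 2 or 3, with adjusted p-values of 0.0582 to 0.0985. Ndufb4b took 1.1% ± 1.22 of the TPM of the 3 copies in cultured libraries and 13.0% ± 6.03 in resident libraries.

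Complex II had the lowest median of the 5 complexes, 1.53 over its 4 genes. Sdha had 439, 278 and 415 CPM in cultured libraries, against 255, 233, 260 and 263 CPM in resident libraries (0.62 ± 0.16, adjusted p = 0.00593). It was called lower on the TPM scale (-0.51, limma, adjusted p = 0.0231), where 67% of all genes were called lower and 17.7% higher. Sdhd, a membrane anchor that binds heme and ubiquinone, had 360, 303 and 316 CPM in cultured libraries, against 76.3, 76.9, 73.4 and 84.6 CPM in resident libraries (2.11 ± 0.11, adjusted p = 2.05e-07). Sdhc was higher by 1.71 ± 0.10 and Sdhb by 1.35 ± 0.10. Cycs had 99.7, 122 and 108 CPM in cultured libraries, against 53.3, 53.0, 52.5 and 53.9 CPM in resident libraries (1.08 ± 0.10, adjusted p = 9.34e-06), and was at -0.02 on the TPM scale.

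The rise in culture also varied with transcript length. In the shortest 10% of genes (98 to 967 bases) the 1159 genes outside the set had a median of 1.32 and 70.6% were called higher, and the 64 members had a median of 2.45. With the length trend removed 59 members were called higher, 9 lower and 16 neither, with a median of 0.66, against 38% of all genes called higher and 35.9% lower. The trend fitted without the members and ribosomal protein genes gave 69 higher and 4 lower, against 38.8% and 35.1%. With the trend over all genes removed, all 20 members of 1000 bases or more were still called higher (median 1.12). Of the 44 under 500 bases 24 were called higher and 8 lower (median 0.33). The members' estimates then rose with length (Pearson's r = 0.38, Spearman's rho = 0.56), against -0.35 and -0.52 on counts. The medians by complex were then 0.38 for I, 0.84 for II, 0.81 for III, 1.05 for IV and 0.91 for V, with 20 of 37 complex I genes called higher and 5 lower. The median for IV is raised by Cox4i2, Cox7a1 and Ndufa4l2, which were tested only because of the cultured libraries, so its rank above V is not secure. On the log2(TPM + 0.1) scale, with no length trend removed, limma called 67 members higher and 5 lower. The median of all genes moved to -1.07 there, with 17.7% of genes called higher and 67% lower, and the members' median of 1.09 lay 2.16 above it.

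**Figure D3:**
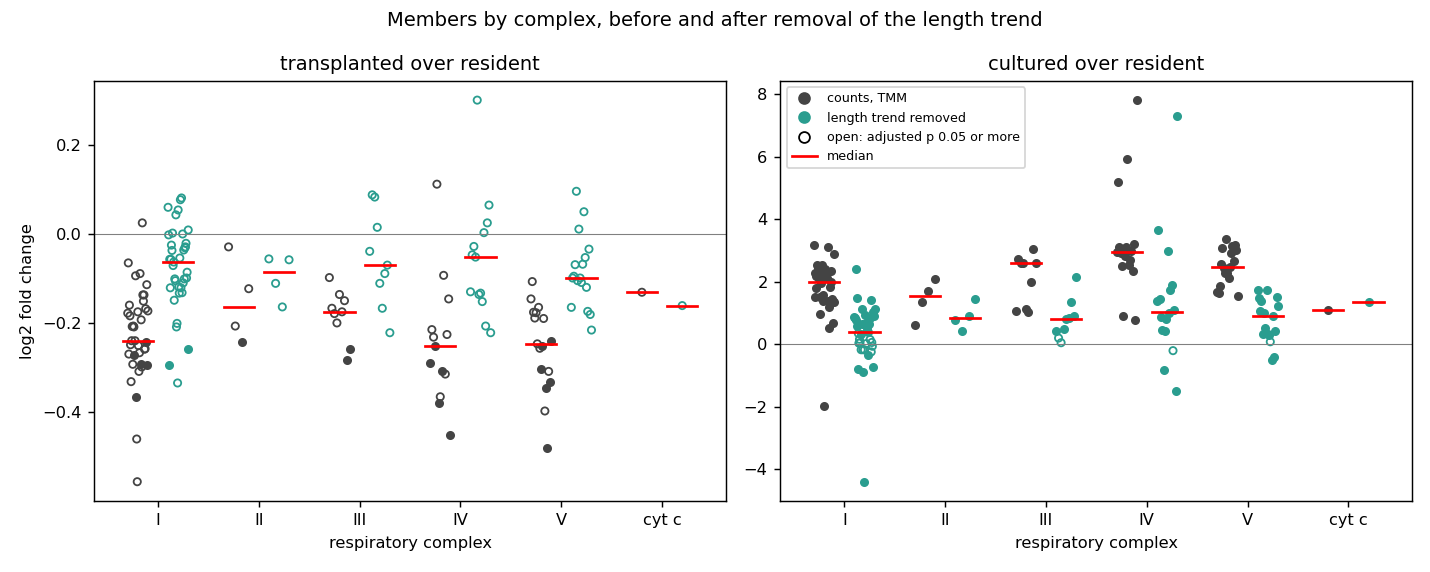
Log2 fold change of each tested member (y axis) by complex (x axis) for transplanted over resident and cultured over resident cells, from counts (dark) and with each library's trend on transcript length removed (green); filled points have an adjusted p under 0.05 and red bars are medians. The transplanted medians lie between -0.25 and -0.13 on counts, and the cultured medians lie at 0.38 to 1.34 with the trend removed.

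Transplanted cells were far from cultured cells across the set. Of 84 tested members 81 fell in transplanted cells relative to cultured cells and none rose, with a median of -2.44. The 81 include Cox4i2, Cox7a1 and Ndufa4l2, which passed the expression filter only through the cultured libraries. DESeq2 also called 81 lower and none higher, against 36.7% and 37.1% of all genes, and 81 members had an unadjusted p under 0.05, against 74.5% of all genes. Of all 12284 genes 35.5% were called lower and 36.9% higher, with a median of 0.05. The same 81 of 84 also had every transplanted library below every cultured one in CPM, against 34.7% of all genes. No member had every transplanted library above, against 38.6% of all genes. The 3 not called were Ndufb4b (1.45, adjusted p = 0.115), Ndufs1 (-0.46, adjusted p = 0.073) and Cox6a2 (-0.74, adjusted p = 0.261). Cox4i1 had 101, 111, 94.1 and 97.9 CPM in transplanted libraries, against 789, 1211 and 783 CPM in cultured libraries, 9.29-fold lower. Medians by complex were -2.23 for I, -1.72 for II, -2.76 for III, -3.20 for IV and -2.67 for V. With the length trend removed 58 members were called lower and 5 higher, with a median of -0.78, against 36.9% and 34.3% of all genes. With the trend of other genes removed the counts were 69 and 3, against 37.7% and 33.4%. On the TPM scale limma called 71 lower and 4 higher, against 16.3% and 66.5% of all genes. Ndufa4 fell on counts (-1.20 ± 0.19, adjusted p = 0.000289), was called higher with the length trend removed (1.27, adjusted p = 1.72e-05) and was at 0.03 on the TPM scale. This comparison uses the same transplanted and cultured libraries as those above, so its values are not independent of them.

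Several complex IV and V subunits exist as paralogues, and 3 forms known from other tissues or from low oxygen were at or near 0 in sorted cells and detected in every cultured library. Cox4i2, the form of subunit IV known from lung and from low oxygen, had 0, 0.0480, 0 and 0 CPM in transplanted libraries, 2.15, 3.92 and 3.17 CPM in cultured libraries, and 0.0906, 0, 0.190 and 0.0457 CPM in resident libraries. It had 1 count in all in transplanted, 191 in cultured and 7 in resident cells. The ratio of cultured to transplanted cells was 261 (95% Poisson interval 46.3 to 10400), and that of cultured to resident cells 38.0 (18.1 to 95.7; log2 fold change 5.18 ± 0.60). Even in culture it made up 0.342% ± 0.068 of the summed TPM of Cox4i1 and Cox4i2. Cox4i2, Cox7a1 and Ndufa4l2 passed the expression filter only through the cultured libraries, where they were high. No adjusted p is therefore given for them.

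Cox7a1, known from heart and skeletal muscle, had 0.0910, 0, 0.0932 and 0 CPM in transplanted libraries, 2.29, 3.87 and 1.07 CPM in cultured libraries, and 0.0453, 0, 0.0950 and 0 CPM in resident libraries. The count was 4 in transplanted, 150 in cultured and 3 in resident cells. The ratio of cultured to resident cells was 69.5 (23.3 to 341). It made up 5.3% ± 1.31 of the TPM of Cox7a1 and Cox7a2 in culture and 0.825% ± 0.953 and 0.552% ± 0.731 in transplanted and resident cells. Ndufa4l2, the paralogue of Ndufa4 known to rise in low oxygen, had no count in any transplanted or resident library and 1.24, 0.920 and 1.76 CPM in cultured libraries (81 counts). It was at least 36.9-fold higher in cultured than in transplanted cells and at least 37.6-fold higher than in resident cells, taken against 3 counts over the group. Intervals and bounds pool the counts of a group's libraries, so they cover counting error only and leave out the spread between libraries. The labels describe no molecular identifiers, so a count may not be 1 molecule and the counting error may be larger.

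Cox6a2, the heart and muscle form of subunit VIa, had 0.273, 0.577, 0.699 and 1.79 CPM in transplanted libraries, 1.67, 1.45 and 1.02 CPM in cultured libraries, and 0.860, 0.794, 0.618 and 0.777 CPM in resident libraries. Its call in culture (0.89 ± 0.33, adjusted p = 0.0354) was lost with any library left out except cultured library 3, with adjusted p-values up to 0.122, and the estimate turned to -0.83 with the length trend removed. Cox6b2, the testis form, had 31 counts in transplanted, 11 in cultured and 17 in resident cells and was not tested. Cox8b had 2, 0 and 3 counts.

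The 3 genes Atp5g1, Atp5g2 and Atp5g3 encode the same mature c subunit of the ATP synthase rotor. Atp5g3 had 10.97, 15.2, 12.2 and 11.95 CPM in transplanted libraries, 129, 219 and 106 CPM in cultured libraries, and 15.8, 15.7, 13.1 and 15.1 CPM in resident libraries. It was 10.4-fold higher in cultured than in resident cells (3.38 ± 0.24, adjusted p = 1.65e-06), and Atp5g1 and Atp5g2 were higher by 2.46 ± 0.18 and 2.28 ± 0.17 on the log2 scale. Atp5g3 made up 13.8% ± 0.861 of the TPM of the 3 genes in transplanted, 25.2% ± 2.11 in cultured and 14.5% ± 1.13 in resident cells, and Atp5g2 50.6% ± 2.42, 40.6% ± 1.31 and 49.0% ± 1.32. For both, no cultured library overlapped a sorted one. Atp5g3 and Atp5g2 have similar lengths (493 and 429 bases).

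**Figure D4:**
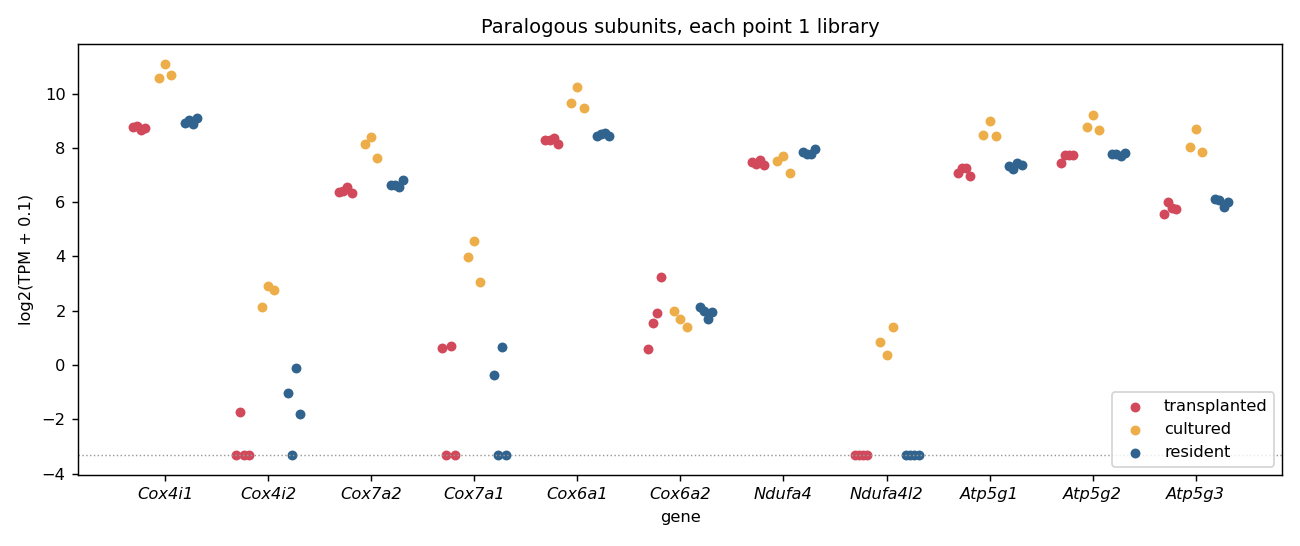
Level of paralogous subunits as log2(TPM + 0.1) (y axis) by gene (x axis), 1 point per library, with transplanted, cultured and resident libraries from left to right within each gene; the dotted line marks 0 TPM. Cox4i2, Cox7a1 and Ndufa4l2 lie above it in all 3 cultured libraries, while Ndufa4 overlaps between transplanted and cultured libraries.

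Genes that build or regulate the complexes without being part of them were described from lists of known factors. Of 44 tested assembly factors none rose and 1 fell in transplanted against resident cells (median -0.02), against 6.64% and 6.45% of all genes. Of 16 genes of the tricarboxylic acid cycle none was called (median -0.03). At an unadjusted p under 0.05 there were 4 assembly factors and 2 genes of the cycle, against 27.8% of all genes. DESeq2 called 1 assembly factor higher and 1 lower and no gene of the cycle, against 8.68% and 7.91% of all genes. The assembly factor that fell was Cox19, a copper-related factor of complex IV (-0.43 ± 0.11, adjusted p = 0.0317). In cultured against resident cells 21 assembly factors rose and 7 fell on counts (median 0.38), which is 47.7% and 15.9%, against 37.9% and 37.2% of all genes. With the length trend removed 7 rose and 22 fell (median -0.38), which is 15.9% and 50%, against 38% and 35.9% of all genes. On the TPM scale 3 rose and 28 fell, which is 6.82% and 63.6%, against 17.7% and 67% of all genes. Cox14, a complex IV assembly factor, had a log2 fold change of 1.67 ± 0.16 on counts and 0.07 with the length trend removed. Sco2, a copper chaperone of complex IV, had -1.31 ± 0.24 and -2.09. In the tricarboxylic acid cycle 14 of 16 genes rose and none fell in culture (median 0.91 on counts, 0.76 with the length trend removed, with 14 called higher on both). On the TPM scale 2 rose and 6 fell, which is 12.5% and 37.5%, against the same 17.7% and 67% of all genes, with a median of -0.20 beside -1.07 for all genes. Mdh2, malate dehydrogenase, had a log2 fold change of 1.67 ± 0.10, Pdha1 of the pyruvate dehydrogenase complex 1.91 ± 0.15 and Cs, citrate synthase, 0.92 ± 0.15 on counts and -0.17 on the TPM scale.

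Of 11 tested regulators 2 rose and 6 fell in cultured against resident cells (median -0.50), against the 37.9% and 37.2% of all genes. After removal of the length trend 3 rose and 6 fell, against 38% and 35.9%, and on the TPM scale 1 rose and 10 fell, against 17.7% and 67%. Ppargc1b, a coactivator of respiratory genes, averaged 6.46 CPM in transplanted, 23.1 CPM in cultured and 3.99 CPM in resident cells. It was higher by 0.68 ± 0.13 in transplanted (adjusted p = 0.00568) and by 2.57 ± 0.14 in cultured (adjusted p = 3.67e-07) than in resident cells. It was the 1 regulator called in transplanted against resident cells, where 6.64% of all genes were called higher and 6.45% lower. Nrf1, whose motif is described above, had a log2 fold change of -1.17 ± 0.12 in cultured against resident cells (adjusted p = 1.92e-05). Gabpa, Yy1 and Tfam were at -0.04, 0.17 and 0.10 on counts and not called, and all 3 were called lower on the TPM scale, where the median of all genes was -1.07. Ppargc1a was too low to be tested.

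Ndufv3, an accessory subunit of complex I known to be made in a short and a long form, had an effective length that varied between libraries. It was 428 to 516 bases in transplanted, 339 to 389 bases in cultured and 375 to 445 bases in resident libraries. Resident libraries overlapped both other groups, which did not overlap each other. Transplanted library 4 was the longest at 516 bases, with the others of its group at 428 to 458 bases. Over all libraries the spread was the widest of the 80 members measured (52.3% of its median length once each library's common shift was taken out, with Atp5j next at 15%). Its counts were higher by 2.89 ± 0.14 in cultured than in resident cells (adjusted p = 2.01e-07). Between transplanted and resident cells it was not called on counts (-0.17, adjusted p = 0.233) and was called lower on the TPM scale by limma (-0.31, adjusted p = 0.0123). The deposited table holds no values per transcript.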

How the data were processed

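The deposited table gives an expected count, a TPM and an FPKM per gene and library, estimated by the authors, with TPM scaled to length and library per the file headers. HISAT, Bowtie2 and GRCm38.p6 are named in the submitters' processing notes, while versions, the counter, strand and filters are, in the sources used here, not given. RNA was extracted with TRIzol and 1 ng went into a Smart-Seq protocol, per the labels' protocols. RefSeq symbols (GRCm38.p6) matched 16845 of 16894 Entrez identifiers (99.7%). The deposited expected counts were rounded. Every comparison was fitted on its own libraries in edgeR 4.0.16 (R 4.3.3; TMM, edgeR's expression filter, quasi-likelihood test). The fitting scripts were tested on simulated data. Effective length was the deposited expected count over TPM, put on a scale of bases with the deposited FPKM, and per-library trends on it (lowess, span 0.5) were removed as an offset in a second fit. Deposited TPM was also tested with limma 3.58.1 on log2(TPM + 0.1), a scale that understates changes of low genes. Alternatives were DESeq2 1.42.0, no filter, a replicate block, leaving out each library, and a pseudocount of 1. CPM used TMM over all 11 libraries, and errors are SD for levels and SE for log2 fold changes. The named genes were, per comparison and complex, the 2 highest and the 2 lowest by log2 fold change, the listed paralogues and the 3 genes of highest mean TPM. Atp5o, Atp5l, Ndufa11, Ndufb3, Ndufb9, Ndufb10, Ndufs6, Ndufs8, Ndufv2 and Ndufv3 were chosen after their values were seen, as were the genes named from the pathway lists. 1 microglial marker is not reported here. The members and lists were chosen with earlier results of these data known.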

Additional observations from a re-analysis of the deposited data

Results flagged for a closer look

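Of 108 levels tested for a sample far from the other 3 of its group, 14 stood out, and chance flags about 1 in 20. In transplanted libraries, library 2 was high for Ndufa10 (51.4 CPM, others 42.1 to 43.4), Sdhc (70.8 CPM, others 60.5 to 61.7) and Cox4i2 (0.0480 CPM, others at 0). Transplanted library 4 was low for Cyc1 (73.0 CPM, others 83.0 to 83.9), Uqcrc1 (168 CPM, others 172 to 173), Ndufa4 (19.1 CPM, others 21.8 to 22.0) and the complex I share of TPM (0.347%, others 0.367% to 0.371%). Transplanted library 3 was high for Atp5md (6.71 CPM, others 5.37 to 5.57) and library 1 for Cox8b (0.0910 CPM, others at 0). In resident libraries, library 2 was low for Uqcrq (17.6 CPM, others 19.1 to 19.4), and library 3 was low for Atp5k (1.52 CPM, others 2.34 to 2.40) and Uqcr10 (14.3 CPM, others 15.9 to 16.1). Resident library 4 was high for Cox8b (0.137 CPM, others at 0) and for the complex I share of TPM (0.433%, others 0.401% to 0.406%). The flags for Cox4i2 and for Cox8b in transplanted and resident libraries rest on 1, 2 and 3 counts. With the other libraries at 0 any count is flagged, so the chance rate does not apply to these flags.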

How the results depend on the processing

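In transplanted against resident cells, 19 members were called lower on counts, 8 with no filter on low counts, 6 with the replicate block, 2 with the length trend removed, 0 with trend and block together, 2 with the trend of other genes (fitted without 264 member and ribosomal protein genes, an alternative chosen after seeing the data), and 2 to 24 without 1 library. The median was -0.071, -0.072 and -0.078 under the 3 trend settings and -0.26 to -0.18 without 1 library. Of all genes 1039 to 1753 were called without 1 library, the fewest without resident library 2, against 1561. Same-numbered libraries correlated at -0.08 to 0.14 in their deviations over the 3 comparisons, so the numbers were not taken as pairs.

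In cultured against resident cells, 0 members were called lower with the block, 9 with the length trend removed, 7 with trend and block, 4 with the trend of other genes, 5 by limma at either pseudocount, and 0 to 1 without 1 library. With trend and block 54 were called higher. The median was 0.66 with the trend removed, 0.68 with trend and block, 0.83 with the trend of other genes, 1.09 and 1.08 by limma at pseudocounts of 0.1 and 1, and 1.97 to 2.41 without 1 library. In transplanted against cultured cells, 5 were called higher with the trend removed, with or without the block, 3 with the trend of other genes, 4 by limma at either pseudocount, and 0 to 1 without 1 library. With trend and block 53 were called lower. The median was -0.78, -0.75 with the block, -0.91 with the trend of other genes, and -1.26 and -1.25 by limma.

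Some estimates changed sign. In transplanted against resident cells, Cox6a2 was at -0.065 with the block, -0.123 and -0.051 by limma and -0.559 to 0.422 without 1 library. Ndufs1 was at 0 with the trend removed, -0.002 with trend and block, -0.001 with the trend of other genes and -0.029 to 0.072 without 1 library. Cox7a2l was at 0.003 with the trend removed and 0.006 with trend and block, Cox8a at 0.065 under both and 0.059 with the trend of other genes, Atp5g2 at 0.011, 0.007 and 0.005 in that order, and Sdha at 0.009 by limma. In cultured against resident cells, Cox6a2 was at -0.833, -0.862 and -0.607 and Ndufa4 at -1.508, -1.502 and -1.187 under the 3 trend settings. By limma at pseudocounts of 0.1 and 1, Ndufs1 was at -0.642 and -0.625, Sdha at -0.512 and -0.509, Cyc1 at -0.062 under both, Uqcrc2 at -0.089, Cox6a2 at -0.245 and -0.193, Ndufa4 at -0.414 and -0.412, and Cycs at -0.02. In that comparison limma at a pseudocount of 0.1 called 67% of all genes lower and 17.7% higher. In transplanted against cultured cells, Cox6a2 was at 1.122, 0.378 and 0.887 and Ndufa4 at 1.268, 1.302 and 0.935 under the trend settings. By limma, Ndufs1 was at 0.698 and 0.68, Sdha at 0.52 and 0.517, Cyc1 at 0.014, Cox6a2 at 0.121 and 0.142, and Ndufa4 at 0.031. Of all genes 66.5% were called higher and 16.3% lower there at a pseudocount of 0.1. The cause of the sign changes was not tested.

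The length trend was fitted over genes that include other short transcripts, so it can remove part of what the members share with them. Few counts limit the precision for the tissue-type isoforms.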
